A study of Mus musculus with 4 samples.

Results

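Jchain-high antibody-secreting cells were studied in subcutaneous tumours of MC38, a colon carcinoma line of the mouse, carried by female C57BL/6 recipients of 12 to 16 weeks of age. The members were chosen by their measured Jchain counts, as barcodes with at least 200 genes, at most 10% mitochondrial UMIs (unique molecular identifiers, each a captured transcript) and 5 or more UMIs of Jchain. They were 53 of 1679 kept barcodes, of which 47 came from control mice and 6 from knockout mice. The 47 control cells all carried 100 or more Jchain UMIs, and the 6 knockout cells all carried 5 to 99.

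Control recipients carried the Prdm1 f/f alleles alone, and knockout recipients were Prdm1 f/f CD19cre, in which cre is driven by a B lineage promoter and is not directed at other cell types. Both groups therefore carried the floxed alleles and the same tumour line. Tumours were taken on day 18 from 11 recipients per genotype and pooled. The live fraction was sorted for B220+ and for CD138+ cells, and the fractions were mixed at a ratio not given in the sources used here. Each genotype gave 1 library of 5′ expression tags and 1 library of B cell receptor contigs, so the numbers below have no replicate check, and all intervals are 95% intervals that cover counting error only. File dates differ between the genotypes, so genotype and library cannot be told apart. The expression libraries held 6976374 (control) and 5463434 (knockout) UMIs. The genotypes shared 3 expression barcodes, and 1 of these belonged to a member cell.

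Antibody-secreting cells are the end stage of the B lineage. The transcription factor Blimp-1, encoded by Prdm1, shuts off the B cell programme, while IRF4 and XBP1 drive antibody output and the growth of the endoplasmic reticulum (ER) in which antibody is folded. The J chain, encoded by Jchain, is a small protein built into secreted polymeric IgA and IgM, which the polymeric immunoglobulin receptor carries across mucosal epithelium. The design sets B lineage cells of tumours with intact Prdm1 beside those with the gene targeted by cre.

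Jchain (chromosome 5, positions 88519809 to 88527897, GRCm38.p6) chose the members, so its counts are given as a description without a test. In the control cells it ranged from 291 to 1972 UMIs with a median of 793. In the knockout cells it was found at 80, 66, 48, 18, 8 and 5 UMIs. The ranges of the genotypes did not overlap. No kept barcode of either library held 4 Jchain UMIs, and the highest count outside the class was 3 in both. The members held 99.96% of the Jchain UMIs of the control library and 95.7% of those of the knockout library. The filters removed 1 further control barcode with 8 Jchain UMIs, which held 671 UMIs of which 21.5% were mitochondrial.

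The class made up 5.84% of kept control barcodes (95% Clopper-Pearson interval 4.32 to 7.69%) and 0.687% of kept knockout barcodes (0.252 to 1.49%). No knockout barcode reached 100 Jchain UMIs, which allows a share of up to 0.343% at a floor of 3 counts. These shares can be set by the mixing of the sorted fractions, since CD138 is the protein of Sdc1, a gene carried by most of the control cells. Neither Scrublet nor a second heavy chain marked any member as a doublet. The cells are numbered below within each library from the highest Jchain count (control cells 1 to 47, knockout cells 1 to 6).

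**Figure D1:**
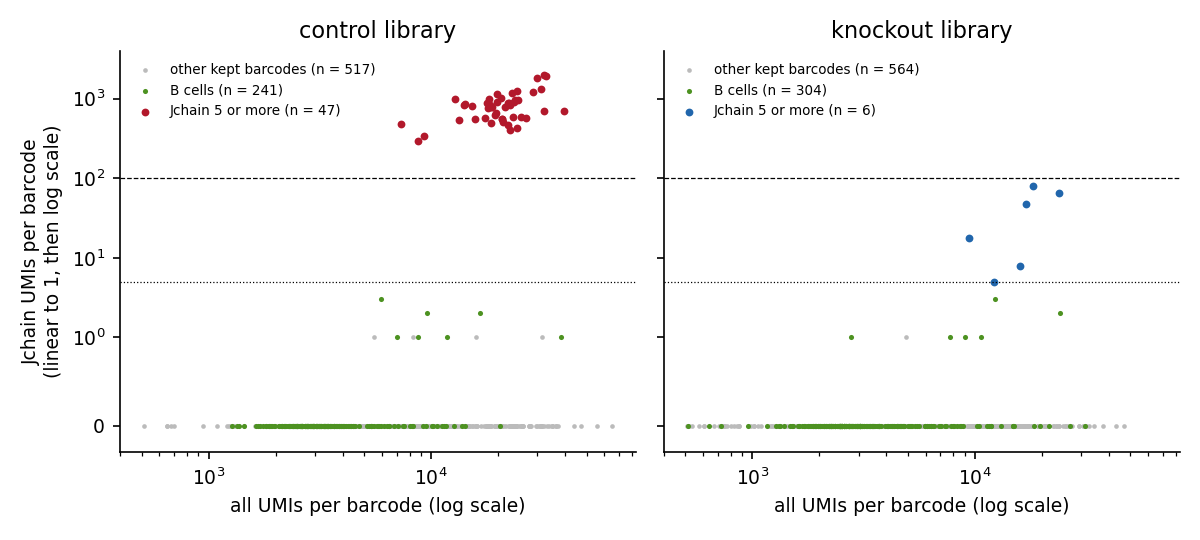
Jchain UMIs (linear to 1, then log scale) against all UMIs (log scale) for each kept barcode of the control library (left) and the knockout library (right), with lines at 5 and 100 Jchain UMIs. The 47 control members lie between 291 and 1972 Jchain UMIs, the 6 knockout members between 5 and 80, and no barcode lies at 4.

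The members were compared with B cells of the same library, defined as barcodes with 3 or more UMIs of the B cell receptor subunit gene Cd79a and fewer than 5 of Jchain (241 control and 304 knockout). The control members were far deeper than the B cells, with a median of 20862 UMIs against 3062 and of 2742 genes against 1259. Immunoglobulin genes took 43.3% of the summed UMIs of the control members, and between 15.8 and 74.0% in single cells. The same share was 2.22% in control B cells and 0.0177% in control barcodes with 3 or more UMIs of the NK cell gene Nkg7. The 6 knockout cells had a median of 16464 UMIs, of which immunoglobulin genes took 5.12% in sum and between 1.28 and 10.1% per cell. Knockout B cells had a median of 2779.5 UMIs, and their immunoglobulin share was 2.76% in sum and between 0 and 11.7% per cell. No knockout member reached the lowest control member in this share. Levels of other genes are given below as counts per 1000000 UMIs outside immunoglobulin genes (CPM), because immunoglobulin alone would lower every other value in a secreting cell.

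**Figure D2:**
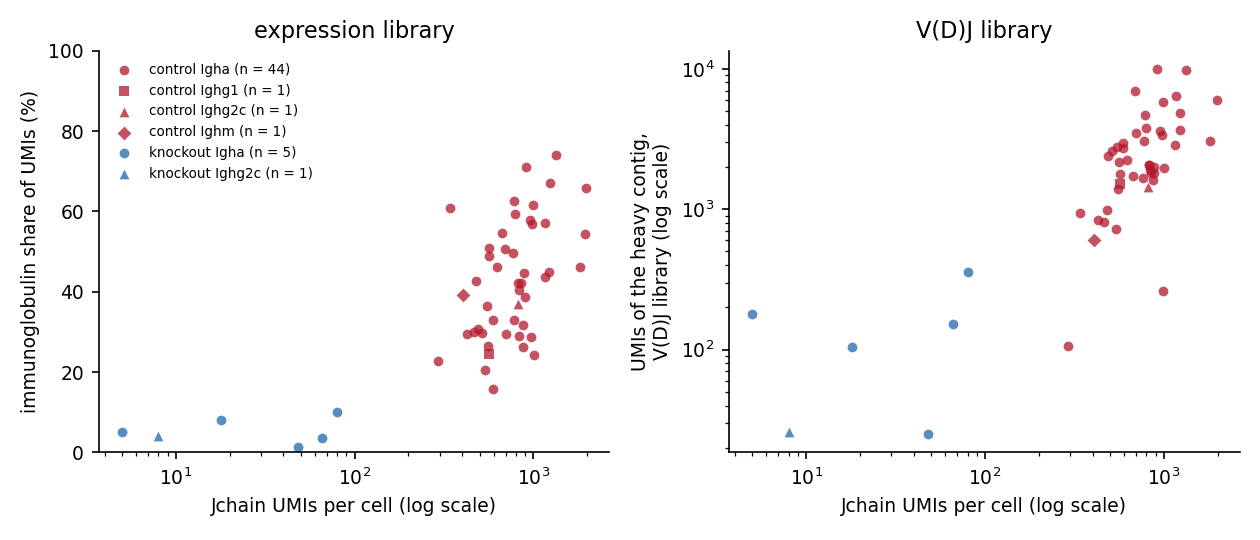
Immunoglobulin share of the expression UMIs (left, percent) and UMIs of the heavy-chain contig in the receptor library (right, log scale) against Jchain UMIs (log scale) for each member, with symbols for the leading heavy constant gene. Control cells lie between 15.8 and 74.0% immunoglobulin and knockout cells between 1.28 and 10.1%.

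The antibody made by the control cells was almost entirely IgA with kappa light chains. IgA is the isotype of mucosal secretions and joins with the J chain. A heavy chain contig was recovered in 45 of the 47 cells and carried a constant gene call in 44, of which 41 were IgA (93.2%, interval 81.3 to 98.6%). The others were 1 IgG1 (control cell 34), 1 IgG2c (control cell 23) and 1 IgM (control cell 45). Counting constant gene transcripts in place of contigs gave 44 cells led by Igha and the same 3 exceptions.

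Igha reached 28511 CPM in the control members, with a median of 251 and a highest value of 1540 UMIs per cell, and was absent only from the IgM cell. For immunoglobulin genes too, CPM is taken over UMIs outside immunoglobulin genes, so it is not a share of all UMIs. Ighm was found in 5 cells, at 254 UMIs in the IgM cell and at 164, 43, 32 and 1 in control cells 18, 7, 34 and 17. Control cell 18 also held 291 Igha UMIs, so transcripts of both isotypes were counted in this barcode. Ighd, which naive B cells transcribe with Ighm, had no UMI in the 47 cells and 244 CPM in control B cells. The light contig with the most UMIs was kappa in all 47 cells and lambda in none. This allows a lambda share of up to 6.38% at a floor of 3 counts (interval 0 to 7.55%). A second light contig, present in 2 cells, was not counted. Iglc1 was also found in some members, at up to 60 UMIs in control cell 34, which held 437 of Igkc.

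B cells of the same tumours had another isotype makeup. Of 77 control B cells with a called isotype 60 were IgM, 10 IgD and 7 switched to IgG. None was IgA, which allows up to 3.90% at the same floor (interval 0 to 4.68%). Contigs were recovered in only 38.2% of control B cells against all 47 members, and the control receptor library was shallow, at 2.94 reads per UMI against 160 in the knockout library. The members alone took 97.9% of the contig UMIs of the control library. Of 289 knockout B cells with a called isotype 7 were IgA (2.42%, interval 0.979 to 4.93%). The IgA share of B cells therefore cannot be compared between the genotypes at like depth.

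The heavy chains of the control cells were diverse. The 45 chains used 28 IGHV genes. A clone was defined as cells of the same IGHV gene, IGHJ gene and CDR3 nucleotides. The chains formed 45 clones by this rule, so none held more than 1 cell, and the rule splits relatives whose CDR3s differ. The commonest heavy V genes, IGHV1-26, IGHV1-64, IGHV1-81 and IGHV9-3, were each used by 3 cells, and the commonest light V gene, IGKV14-111, by 4. The IGHV1 family gave 26 of the 45 chains, against 50 of 90 in control B cells. No clone was shared with a B cell or between the genotypes. A heavy contig was recovered in only 90 of the 241 control B cells, so clones shared with the others could not be seen. CDR3 length had a median of 39 bases (21 to 60) in the control members and of 42 in control B cells.

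Control cells 22 and 19 were the nearest pair in sequence. Both were IgA, used IGHV1-53 with IGHJ2 and IGKV6-23, and had CDR3 runs of equal length. Their CDR3 sequences, as the contig tables give them, are shown with the bases that differ between them in capitals.
control cell 22 heavy CDR3: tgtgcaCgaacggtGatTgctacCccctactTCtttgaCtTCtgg
control cell 19 heavy CDR3: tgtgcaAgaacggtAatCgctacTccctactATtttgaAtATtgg
control cell 22 light CDR3: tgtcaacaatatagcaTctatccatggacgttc
control cell 19 light CDR3: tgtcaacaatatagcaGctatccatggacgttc
The heavy CDR3s differed at 9 of 45 bases (80% identity) and the light CDR3s at 1 of 33. The pair was therefore counted as separate clones both by identical CDR3 and at 85% identity.

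Base changes in the V region accumulate when B cells mutate their receptors. With no genome given, the commonest V sequence of the same IGHV gene among IgM and IgD chains outside the class, seen in at least 3 chains, served as the reference. For IGHV1-53 it was the sequence of 12 of 20 such chains. It is printed first, followed by the V regions of control cells 22 and 19 with every base that differs from it in capitals.
IGHV1-53 reference: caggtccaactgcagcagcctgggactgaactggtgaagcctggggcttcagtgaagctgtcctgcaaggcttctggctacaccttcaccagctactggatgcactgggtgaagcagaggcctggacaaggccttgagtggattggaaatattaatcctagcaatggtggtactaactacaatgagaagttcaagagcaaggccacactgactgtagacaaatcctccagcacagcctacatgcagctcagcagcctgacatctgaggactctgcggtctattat
control cell 22 V region: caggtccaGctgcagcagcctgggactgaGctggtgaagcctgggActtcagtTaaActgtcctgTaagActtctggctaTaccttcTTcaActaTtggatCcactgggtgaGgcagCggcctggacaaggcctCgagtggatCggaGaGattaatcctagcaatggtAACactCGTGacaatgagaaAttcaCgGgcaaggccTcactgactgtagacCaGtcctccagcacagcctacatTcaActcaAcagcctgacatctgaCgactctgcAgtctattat
control cell 19 V region: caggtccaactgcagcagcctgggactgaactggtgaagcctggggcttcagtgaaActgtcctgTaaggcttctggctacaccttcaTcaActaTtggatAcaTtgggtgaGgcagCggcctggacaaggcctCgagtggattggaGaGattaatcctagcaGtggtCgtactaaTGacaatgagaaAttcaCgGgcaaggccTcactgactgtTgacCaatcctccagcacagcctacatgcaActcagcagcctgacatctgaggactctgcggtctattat
Cell 22 differed from the reference at 37 of 285 bases and cell 19 at 23. At 18 positions both held the same changed base, 17 changes were in cell 22 only and 3 in cell 19 only, and at 2 positions they held different bases. The clone rule does not use these shared V region changes, and common descent of the pair was not tested.

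Among cells with a reference, most control members differed from it, and most B cells matched it. The reference was itself the commonest sequence of IgM and IgD chains outside the class. It was held by 191 of 281 such chains of the IGHV genes used, so a B cell median of 0 was largely set by this choice. Of the 47 control members 45 had a heavy contig and 34 of these a reference. These 34 differed from it at a median of 8.5 bases (0 to 37), or 2.98% of the bases compared. Of these, 4 matched it in full and 27 differed at 3 or more bases. The 60 control B cells with a reference had a median of 0 (0 to 21), and 41 matched in full. The 31 IgA members had a median of 8. Because the references came from B cells of these libraries, an IgM chain that was itself changed could lie at its own reference, so these counts are differences from the commonest chain and not from a germline gene.

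**Figure D3:**
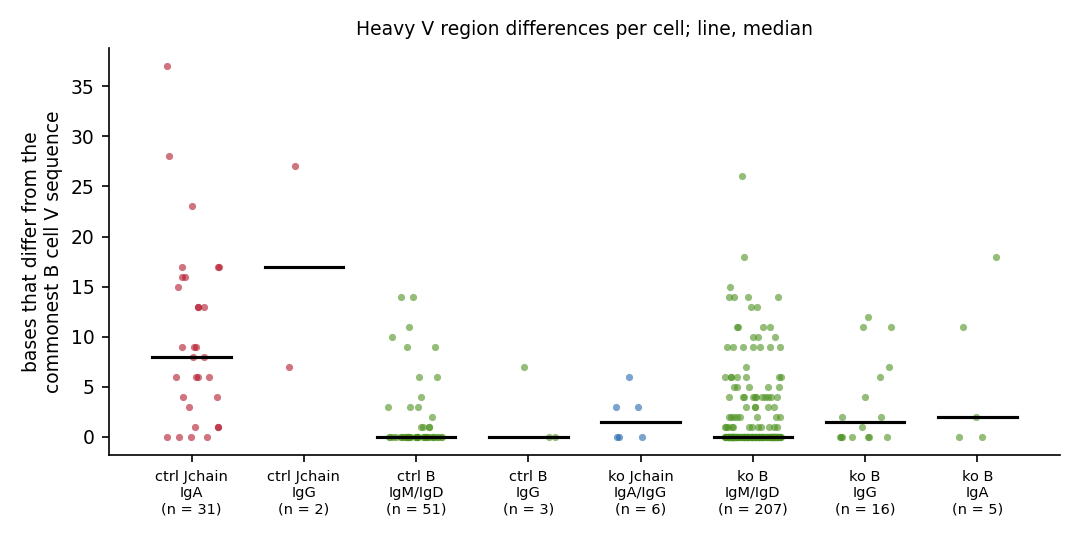
Bases of the heavy V region that differ from the commonest B cell sequence of the same V gene, 1 point per cell, by genotype, class and isotype, with the median as a line. Control IgA members have a median of 8, and the IgM and IgD chains of B cells have medians of 0 in both libraries. The reference was taken from IgM and IgD chains, so their medians were largely set by its choice.

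Across all genes measured in control cells (50 or more UMIs over members and B cells, 3694 genes), 563 were at least 2-fold higher in the members (15.2%) and 805 at least 2-fold lower (21.8%). The median log2 ratio of all 3694 genes was -0.17. With CPM taken over all UMIs, immunoglobulin included, that median moved to -0.96 and the share of higher genes among the called ones from 41.2 to 12.9%. Setting the median gene to 0 gave 50.6% higher, and comparison with the 24 control B cells of at least 7000 UMIs gave 61.1%. The counts and medians of the gene lists below are therefore read beside these shares. The 24 deep B cells also held more Ccl4, Lyz2 and Tyrobp, genes of other leukocytes, per UMI than all control B cells. Log2 ratios of the members were -7.99, -7.10 and -6.64 against the deep B cells and -6.23, -5.33 and -5.18 against all. Values against the deep B cells thus do not differ by depth alone, and the part of such barcodes was not tested.

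Of 9 measured regulators of the plasma cell fate, 6 were at least 2-fold higher and 3 lower (median 1.56 on the log2 scale). The median was 3.52 against the deep B cells, 3.70 and 4.85 with genes of at least 10 and 200 UMIs, and 0.77 with CPM over all UMIs. Prdm1 (chromosome 10, positions 44437174 to 44528558) had 43 UMIs in 22 of the 47 control members (76.1 CPM), with 0 to 6 per cell. Control B cells had 2 Prdm1 UMIs (2.11 CPM), and the 6 knockout members had none. With fewer than 50 UMIs over control members and B cells, Prdm1 was not among the 9 measured regulators. In knockout B cells Prdm1 stood at 18.0 CPM, and in Nkg7 barcodes at 6.14 (control) and 6.89 CPM (knockout). The exons removed by cre are not given in the sources used here, so these 5′ tags do not check the deletion.

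Xbp1, the transcription factor that expands the secretory pathway, was present in all 47 control members, at 8 to 153 UMIs per cell with a median of 36. Its summed level was 4193 CPM against 82.2 CPM in B cells, a ratio of 51.0 (40.7 to 64.8). Irf4, needed for the plasma cell fate, was 28.8-fold higher (17.1 to 52.2), at 455 CPM in 43 cells. Tent5c, a poly(A) polymerase that lengthens tails of secretory transcripts, was 53.9-fold higher, and the elongation factor gene Ell2, which favours the secreted form of heavy chain transcripts, 13.0-fold. The lymphoid factors Ikzf3, Ikzf1 and Zbtb20 were lower, at ratios of 0.325, 0.364 and 0.331.

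Most B cell transcription factors were lower in the members. Of 16 measured B cell transcription factors none was 2-fold higher and 13 were 2-fold lower, with a median of -3.54 that includes 5 genes at 0. Pax5, the factor that holds B cell identity, Spib, Id3, Ciita and Aff3 had no UMI in the 47 cells. Against 106.4 CPM in B cells, the floor of 3 counts puts the Pax5 ratio at no more than 0.0499. Ebf1 stood at a ratio of 0.0684 and Bach2, a repressor of Prdm1, at 0.0672. Mef2c (0.757) and Tcf3 (0.774) stayed within 2-fold. Against the deep B cells the list median was -0.86 and Pax5 was still lower, at a log2 ratio of -3.61.

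Of 20 genes of the B cell receptor and its coreceptors 17 were 2-fold lower and none higher (median -2.65). The receptor subunit genes were present in all 47 cells, Cd79a at a ratio of 0.314 and Cd79b at 0.335. Cd79a counts chose the B cells, so its ratio and its place among the 17 are a description only. Ms4a1, which encodes CD20, was at 9 UMIs in 5 cells against 1044 CPM in B cells (ratio 0.0153). Fcmr, the IgM Fc receptor gene, Cd22 and Cr2 had no UMI.

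All 11 genes of MHC class II presentation were at least 2-fold lower (median -3.93). H2-Aa, a class II chain, was found at 0 to 21 UMIs per cell with a median of 2, at 228 CPM against 7086 CPM in B cells (ratio 0.0322, 0.0269 to 0.0383). The invariant chain gene Cd74 was the most abundant of the list at 4460 CPM in all 47 cells (ratio 0.173). H2-DMb2 had 988 UMIs in B cells and none in the members, and H2-Oa 401 and none. Ciita, the master activator of class II genes, was among the genes at 0 above. Against the deep B cells the log2 ratio of H2-Aa was -4.45.

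Genes of the secretory pathway were higher in nearly all cases. Of 22 measured genes of ER translocation 19 were 2-fold higher (median 2.67), of 26 ER chaperones and disulfide enzymes 25 (3.51), of 18 genes of N-glycosylation 15 (2.14), of 14 of ER-associated degradation 13 (2.63) and of 27 of vesicle transport 26 (1.92). None of these genes was 2-fold lower.

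Among the translocation genes, which bring new chains into the ER, Sec11c, a signal peptidase subunit, stood at 3570 CPM (12.2-fold), Ssr4 at 3208 CPM (13.4-fold) and the channel subunit gene Sec61b at 3309 CPM (8.22-fold). Among the folding enzymes, Hsp90b1, which encodes the chaperone GRP94, was found at 8 to 581 UMIs per cell and 8843 CPM (28.9-fold, 25.7 to 32.7). Mzb1, a helper of GRP94 in antibody-secreting cells, stood at 8574 CPM, the disulfide isomerase gene Txndc5 at 3700 CPM (18.1-fold) and Hspa5, which encodes BiP, at 2937 CPM (11.4-fold). Creld2 (35.7-fold) and Sdf2l1 (40.3-fold) differed most within the list. Ero1lb, an oxidase, was the single gene of this list within 2-fold, at 1.58.

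Derl3, an ER degradation gene, had 791 UMIs in 46 members and 3 in the 241 B cells (443-fold, 151 to 2152). Edem1, which sorts misfolded glycoproteins for degradation, was 33.2-fold higher. Lman1, the cargo receptor that carries glycoproteins out of the ER, was 25.6-fold higher and the ER sheet protein gene Ckap4 13.6-fold. Stt3b and Man1a of the glycosylation list lay within 2-fold, at ratios of 0.917 and 0.872. Against the deep B cells Xbp1, Hsp90b1, Derl3 and Sec61b kept log2 ratios of 5.73, 4.35, 8.61 and 2.63.

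**Figure D4:**
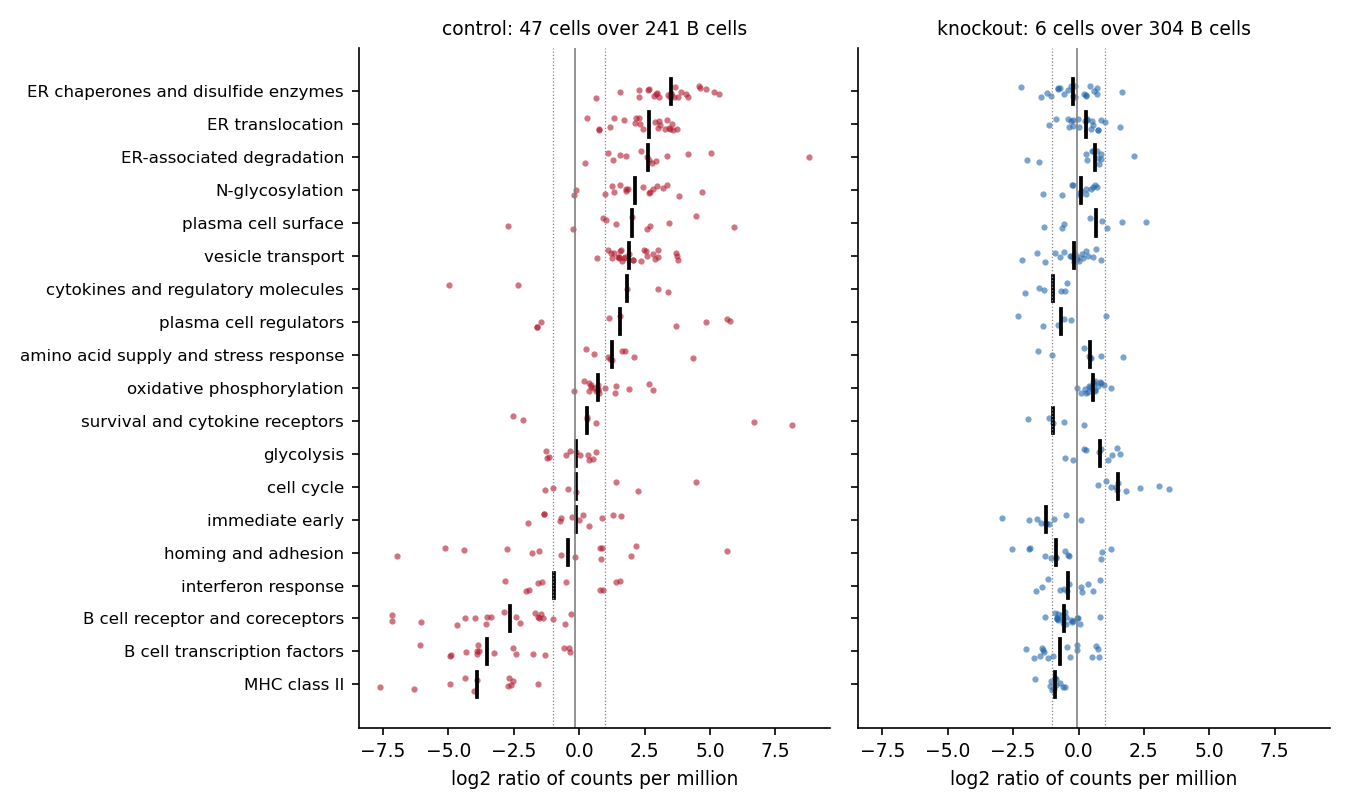
Log2 ratios of summed CPM for the measured genes of each list, control members over control B cells (left) and knockout members over knockout B cells (right), with black bars at list medians, dotted lines at 2-fold and a grey line at the median of all genes. The secretory lists have medians of 1.92 to 3.51 in control cells and of -0.21 to 0.64 in knockout cells.

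Promoters of the secretory genes were searched for the ER stress response element, a site bound by ATF6 with NF-Y, in RefSeq sequence of GRCm38.p6 covering 250 bases before each start site. The letters searched were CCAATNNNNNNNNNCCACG on both strands. Of 27025 genes with a promoter, 35 held it (0.130%). Among measured genes it was found in 9 of 444 that were 2-fold higher in the members (2.03%), in none of 637 that were lower and in 1 of 1894 between. The 9 are Derl3, Creld2, Hsp90b1, Dnajc3, Calr, Hspa5, Pdia6, Syvn1 and Canx. The chaperone list held 7 of them among 21 genes with a promoter (33.3%) and the degradation list 2 of 12 (16.7%).

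The element is printed here for genes of these lists, on the strand of each gene, because the same letters stand at genes of very different ratios, from Derl3 to Canx and Syvn1 (2.915- and 2.93-fold). Capitals mark its outer parts, or their reverse complements where it lies on the opposite strand.
Hspa5, chr2:34772015-34772053, plus strand: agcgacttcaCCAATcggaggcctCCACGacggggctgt
Derl3, chr10:75893232-75893270, plus strand: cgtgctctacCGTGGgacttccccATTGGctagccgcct
Creld2, chr15:88819510-88819548, plus strand: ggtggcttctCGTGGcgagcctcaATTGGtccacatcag
Dnajc3, chr14:118937817-118937855, plus strand: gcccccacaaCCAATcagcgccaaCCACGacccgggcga
Hsp90b1, chr10:86705523-86705666, minus strand: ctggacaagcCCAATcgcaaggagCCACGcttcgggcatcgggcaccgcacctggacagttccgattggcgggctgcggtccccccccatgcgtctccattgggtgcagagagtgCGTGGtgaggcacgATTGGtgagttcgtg
Calr, chr8:84847065-84847103, minus strand: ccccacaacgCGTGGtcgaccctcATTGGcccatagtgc
Pdia6, chr12:17266481-17266519, plus strand: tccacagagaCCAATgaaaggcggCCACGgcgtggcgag
Canx, chr11:50325790-50325828, minus strand: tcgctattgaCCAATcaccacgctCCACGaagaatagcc
Syvn1, chr19:6046522-6046560, plus strand: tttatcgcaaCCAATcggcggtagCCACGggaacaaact
Hsp90b1 held 2 elements, 1 on each strand, and the other genes 1 each. The core of the element bound by XBP1, TGACGTGG on either strand, was found in 163 of the 27025 genes (0.603%), in 15 of the 444 higher genes (3.38%) and in 4 of the 637 lower ones (0.628%). A match describes the letters of a promoter and is no evidence of binding.

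Genes of amino acid supply were mostly higher. Of 9 measured genes of this list 7 were 2-fold higher (median 1.25). Asns, which makes asparagine, had 49 UMIs in 20 cells (20.6-fold, 7.54 to 78.5), and Nars, which charges asparagine to its tRNA, was 3.38-fold higher. The stress factor Atf4 stood at 1.49-fold, and Trib3 and Slc7a11 had no UMI in the members. Of 18 respiratory chain genes 5 were 2-fold higher, led by Ndufa1 (7.15-fold) and Ndufa4 (6.42-fold), and the others lay within 2-fold. None of 11 glycolysis genes was 2-fold higher, and 3, Slc2a1, Eno1 and Gpi1, were lower.

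Of 7 measured survival genes 2 were 2-fold higher and 2 lower (median 0.30). Tnfrsf17, which encodes the APRIL and BAFF receptor BCMA, had 501 UMIs in 44 of the 47 cells, with a median of 8 and a highest count of 40 per cell. It had no UMI in the 241 control B cells, which makes it at least 227-fold higher by the lower bound of the counting interval and 280-fold at the floor of 3 counts, and none in 208 Nkg7 barcodes of median depth 10580. After each cell was thinned to 1500 UMIs it was still found in 19 of 47 members and in none of 237 B cells. The BAFF receptor gene Tnfrsf13c stood at a ratio of 0.225, and Tnfrsf13b, which encodes TACI, at 1.56. Mcl1, the survival factor that plasma cells depend on, was 1.23-fold higher, and Bcl2 stood at 0.174. Cd28, better known as a T cell receptor and also used by long-lived plasma cells, had 124 UMIs in 35 cells (104-fold, 28.2 to 869).

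Of 11 measured plasma cell surface genes 8 were 2-fold higher and 1 lower (median 2.02). Sdc1, the gene of the sorted protein CD138, had 109 UMIs in 35 cells and none in B cells, at least 48.8-fold higher by the same bound and 61.0-fold at the floor. Slamf7, an adhesion receptor, was 10.8-fold higher in 45 cells. Cd38 was lower (0.150). Epcam, an epithelial adhesion gene, had 80 UMIs in 30 members against 6 UMIs in 6 B cells (22.4-fold), and the keratin gene Krt18 had 35 UMIs in 10 members and none in B cells. After thinning Epcam was found in 8 of 47 members, in 1 of 237 B cells and in 1.44% of Nkg7 barcodes. Of the 4 tumour or epithelial markers Krt19 was at 0, and the summed level was 212 CPM in members against 6.32 CPM in B cells and 6.82 CPM in Nkg7 barcodes; its part in the results was not tested.

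Homing genes differed in both directions. Ccr10, the receptor for mucosal chemokines that IgA plasma cells carry, had 90 UMIs in 33 cells and none in B cells (at least 40.1-fold higher by the interval bound and 50.4-fold at the floor). The gut integrin gene Itgb7 was 4.57-fold higher, its partner Itga4 1.72-fold and the selectin ligand gene Selplg 3.91-fold. Receptors of lymph node entry and position were lower, with Ccr7 at 2 UMIs in 1 cell (ratio 0.00802) and Cxcr5 at 0. In all, 3 of 14 measured genes were 2-fold higher and 6 lower (median -0.42). The median was 0.52 against the deep B cells, 0.78 with genes of 200 or more UMIs and 0.12 against knockout B cells. Ccr9, the small intestinal homing receptor, had 1 UMI, and Cxcr4, which holds plasma cells in bone marrow, had 3.

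Few cytokine genes were detected. Of 5 measured cytokine and regulatory genes 3 were 2-fold higher and 2 lower. The checkpoint genes Vsir, which encodes VISTA, and Cd274, which encodes PD-L1, were higher. Vsir had 113 UMIs in 41 cells (199.9 CPM, 10.5-fold, 6.38 to 18.4) and Cd274 102 UMIs in 29 cells (180.5 CPM, 8.16-fold, 5.06 to 13.7). In Nkg7 barcodes these genes stood at 24.2 and 29.0 CPM. Against the deep B cells their log2 ratios were 2.99 and 2.84. Fgl2 was 3.53-fold higher. Il10, a cytokine tied to regulatory plasma cells, had 1 UMI in the 47 cells and Ebi3 had 7, while Ltb (0.0316) and Tgfb1 (0.195) were lower. The list median was 1.82 over these 5 genes and -1.99 over the larger set of list genes with 10 or more UMIs.

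The interferon list had 2 of 10 genes 2-fold higher, Isg15 (2.95-fold) and Bst2 (2.69-fold), and 5 lower, Ifit3 the most (0.139). The list median was -0.96, and with genes of 200 or more UMIs it was 0.89. Against the deep B cells neither higher call held, with Isg15 at 0.59 and Bst2 at 0.58 on the log2 scale, and with CPM over all UMIs they stood at 0.77 and 0.64. Of 12 immediate early genes 2 were higher, Egr1 and Fos (2.43-fold), and 3 lower, Junb, Ier5 and Dusp1. Against the deep B cells the lower calls did not hold (-0.22, -0.79 and -0.745 on the log2 scale), Egr1 stood at 0.98 and Fos at 3.52, and the list median was 0.53 in place of -0.14. Fos was found in 36 of the 47 cells, with 146 of its 534 UMIs in 1 cell.

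Ranked by the bound of the counting interval nearest to 1, the first 15 higher genes were Jchain, Tnfrsf17, Derl3, Ifitm1, Eaf2, Sdc1, Xbp1, Ccr10, Tent5c, Cd28, Sdf2l1, Creld2, Hsp90b1, Edem1 and Fkbp11. Of these, Jchain chose the cells. Eaf2, an elongation factor gene, had 358 UMIs in 46 members and 3 in B cells (200-fold, 68.0 to 976). Ifitm1, an interferon-induced membrane gene, had 177 UMIs, but in 15 cells only and with 60 in the highest. The first 15 lower genes were H2-DMb2, Fcmr, H2-Oa, Ccl4, Fcer2a, Ly86, Ms4a1, Ccr7, Lyz2, Bank1, Tyrobp, Cd83, H2-Aa, Cd72 and Id3. Ccl4, Lyz2 and Tyrobp, genes of other leukocytes, stood high in the B cell class through few barcodes, with 372 of 379, 203 of 203 and 124 of 183 UMIs in 2 barcodes each.

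**Figure D5:**
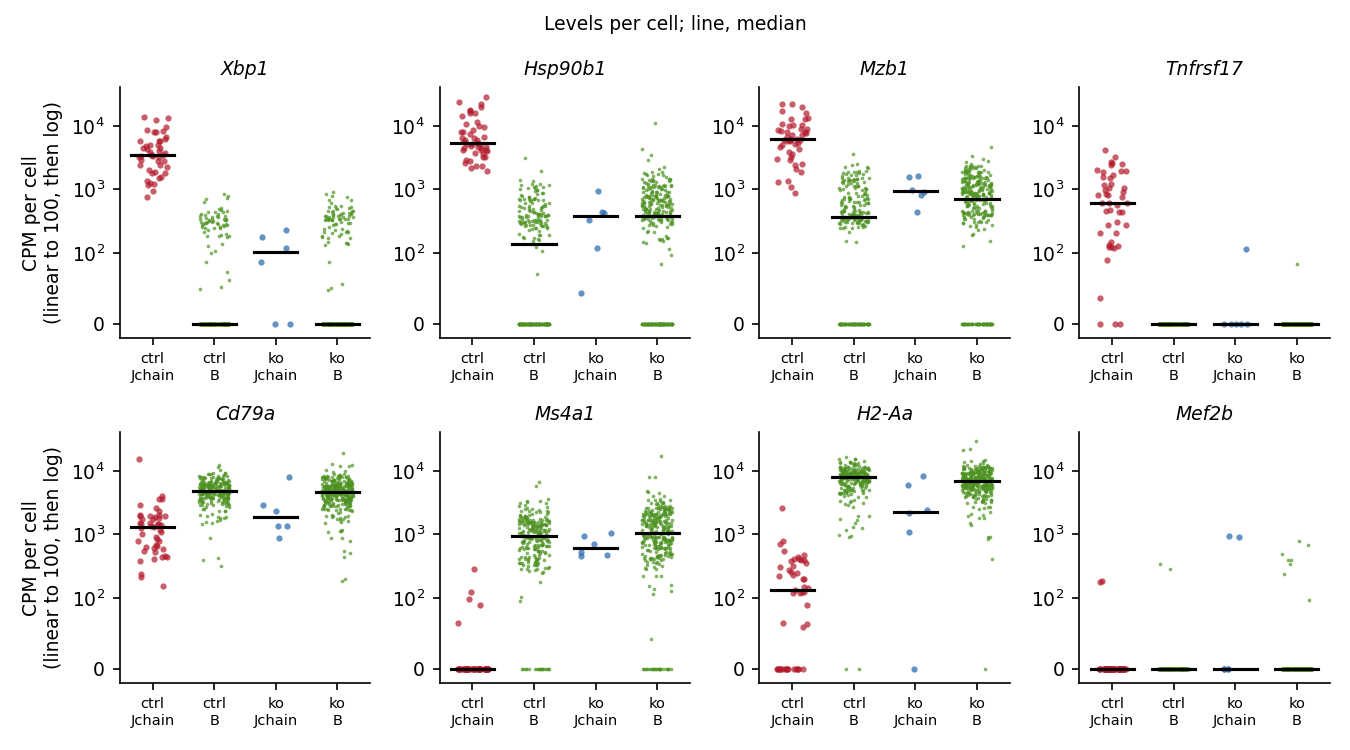
CPM per cell (linear to 100, then log scale) for 8 genes in control members, control B cells, knockout members and knockout B cells, with the median as a line. In control members Xbp1 and Hsp90b1 have medians of 3452 and 5399 CPM and Ms4a1 has a median of 0, and Mef2b is above 0 in 2 of the 6 knockout members.

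Markers of other cells were counted in the 47 control members. T cell genes gave 75 UMIs in 6 cells, most of them in control cells 17 (35), 32 (20) and 24 (16). In the NK list Nkg7, Ncr1 and Klrb1c were at 0, while Gzma had 54 UMIs in 20 cells and Prf1 30 in 18. Macrophage markers gave 2 UMIs, with C1qa, C1qc, Lyz2, Adgre1 and Csf1r at 0, and neutrophil, mast cell and erythroid markers gave none. Of the plasmacytoid dendritic cell list Siglech was at 0, and 336 of 456 UMIs were Bst2. Without barcodes holding 3 or more UMIs of T, NK or macrophage markers, which left out 16 members and 5 B cells, 483 of 3162 genes were 2-fold higher and 798 lower.

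The control members also differed among themselves. Genes were ranked by the variance of their counts over that expected from each cell's depth. Crip1, a zinc-binding protein gene, led, at 0 to 952 UMIs per cell with a median of 65. Ly6a, the gene of the surface antigen Sca-1, was found in 22 of 47 cells. Cells 28, 45, 34 and 29 held 219, 210, 128 and 78 Ly6a UMIs, cells 32, 24 and 43 held 35, 31 and 27, and no other cell more than 12. The same cells held the 4 highest Mzb1 counts, and 3 of them were among the 4 highest for Hsp90b1. Hsp90b1 stood at 490, 309, 581 and 118 UMIs in them, against a median of 68, and Mzb1 at 543, 218, 447 and 354, against a median of 77. Outside them, cells 43 and 9 held 370 and 270 Hsp90b1 UMIs, and cell 29 was below several other cells. Cells 28 and 29 were also deep, at 39602 and 32235 UMIs.

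These cells were of different isotypes. Cells 28 and 29 were IgA, cell 34 was the IgG1 cell and cell 45 the IgM cell. The IgM cell had 405 Jchain UMIs, 56 of Cd79a and none of Tnfrsf17, and the IgG1 cell had 16 of Ccr10, the highest count among members, and none of Tnfrsf17. The IgG2c cell 23, with 820 Jchain UMIs, had no Ly6a. V region differences were 0, 6 and 27 bases in cells 28, 29 and 34. The IGHV6-3 reference used for cell 34 was weakly set, at 8 of 31 chains against 7 for the next commonest sequence. Ly6c2, of the same gene family, was found in 28 cells with up to 148 UMIs. Apoe had 137 UMIs, all in 1 member.

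Dividing cells were rare. Summed over 9 mitotic genes (Mki67, Top2a, Ccna2, Ccnb1, Ccnb2, Cdk1, Birc5, Ube2c and Cenpf), control cell 28 held 137 UMIs, cell 33 held 33, cell 38 held 8 and every other cell no more than 6. Cell 28 was also the deepest member, at 39602 UMIs. Ube2c, a mitotic ubiquitin enzyme, had 71 of its 80 UMIs in 1 cell. Of 7 measured cell cycle genes 3 were 2-fold higher and 1 lower (median -0.13). Without the deepest cell the median was -0.49.

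The 6 knockout members did not carry the expression pattern of the control members. Of the 6 genes that mark the class, Sdc1 and Ccr10 had no UMI in them, Tnfrsf17 had 1, Derl3 had 2 and Eaf2 had 33, all in cells 2 and 3. They are therefore called here by their Jchain counts alone. Their Jchain level was 2456 CPM against 69240 CPM in the control members, and 7.72 CPM in knockout B cells. Jchain had no UMI in 333 knockout barcodes with 3 or more Nkg7 UMIs. After thinning to 1500 UMIs, 2 of the 6 still held 5 or more Jchain UMIs, and all 47 control members did.

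Across 3184 measured genes, 210 were at least 2-fold higher in the 6 cells than in knockout B cells (6.60%) and 502 lower (15.8%). The median gene stood at -0.07 on the log2 scale. Against the 30 knockout B cells of at least 7000 UMIs these counts were 54 and 97 of 1215. Xbp1 was found at 2, 0, 3, 2, 0 and 1 UMIs in cells 1 to 6, which is 87.3 CPM against 105.5 CPM in knockout B cells (ratio 0.828, 0.350 to 1.68). Hsp90b1 was lower (0.575) and Mzb1 near the B cell level (1.17). Of 21 chaperone genes 1, Txndc5 (3.18-fold), was higher and 4 were lower, with a median of -0.21. Of 12 degradation genes Ube2j1 (4.40-fold) was higher and 2 were lower.

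Several B cell genes were detected in all 6 cells, while others were lower. Ms4a1 was found in all 6, at 17, 12, 8, 6, 7 and 11 UMIs, a ratio of 0.583 to knockout B cells. Cd79a stood at 22, 20, 23, 69, 36 and 33 UMIs. Of 16 B cell transcription factors 7 were 2-fold lower and none higher, and Pax5 was at 0.964. The list median was -0.70 on the log2 scale. It was 0.09 against the 30 knockout B cells of at least 7000 UMIs, over the genes still measured. Bank1, a B cell scaffold gene, stood at a ratio of 0.127, and Fcer2a had no UMI. Against the same deep B cells Bank1 stood at -1.51 on the log2 scale and Fcer2a, at its floor, at 0.31. Of the 11 class II genes 3 were 2-fold lower, with a median of -0.905, and of -0.54 against the deep knockout B cells. Cd74 stood at 78, 228, 123, 179, 394 and 274 UMIs (ratio 0.610), and H2-Aa at 0, 49, 18, 21, 128 and 70 (0.502). Cell 1, with the most Jchain and immunoglobulin of the 6, had no H2-Aa.

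All 6 knockout members were nevertheless switched, and each held more heavy contig UMIs than the median knockout B cell. They comprised 5 IgA and 1 IgG2c cells (cell 5), with 5 kappa chains and 1 lambda chain (IGLV1, cell 1). Cell 1 had no Igkc UMI in the expression library. Their heavy contigs had a median of 128.5 UMIs (25 to 356) against 17 (1 to 167) in knockout B cells. Cells 2, 3, 4 and 5, at 153, 25, 104 and 26 UMIs, lay within the B cell range. Cells 1 and 6, at 356 and 179 UMIs, lay above it. The 6 cells took 13.1% of all contig UMIs of that library. They were also deeper than those B cells in the expression library, as given above. V regions differed from the reference at 6, 3, 3, 0, 0 and 0 bases in cells 1 to 6. In 5 IgA knockout B cells with a reference the median was 2 (0 to 18).

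Cells 2 and 3 belonged to 1 clone, the only one of 2 or more cells with a member. They used IGHV1-26 with IGHJ2 and IGKV3-7 with IGKJ5, and shared the same 3 V region differences. The heavy CDR3s of the 6 cells are printed in lower case to show the repeated sequence, beside the light CDR3 of the clone.
knockout cell 1 heavy CDR3: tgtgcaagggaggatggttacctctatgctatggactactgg
knockout cell 2 heavy CDR3: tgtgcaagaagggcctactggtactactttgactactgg
knockout cell 3 heavy CDR3: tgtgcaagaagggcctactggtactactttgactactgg
knockout cell 4 heavy CDR3: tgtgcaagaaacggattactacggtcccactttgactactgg
knockout cell 5 heavy CDR3: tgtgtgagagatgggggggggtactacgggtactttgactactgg
knockout cell 6 heavy CDR3: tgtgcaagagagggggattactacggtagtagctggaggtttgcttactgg
knockout cells 2 and 3 light CDR3: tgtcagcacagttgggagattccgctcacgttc
Cell 4 used the same heavy V and J genes as the clone with a CDR3 of 42 bases in place of 39.

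Several genes that were higher in the 6 cells had most of their UMIs in this pair. Mef2b, a factor of germinal centre B cells, had 21 and 16 UMIs in cells 2 and 3 and none in the other 4 (33.6-fold over knockout B cells, 17.8 to 67.3). In the control members it had 7 UMIs in 2 cells. The pair also held 12 and 21 UMIs of Eaf2, 23 and 19 of the microtubule regulator gene Stmn1, 22 and 26 of the replication gene Pclaf, and 91 and 22 of Blvrb, a biliverdin reductase gene. The 9 mitotic genes summed to 110 and 20 UMIs in cells 2 and 3, 3 in cell 6 and 0 in cells 1, 4 and 5. Of 10 measured cell cycle genes 9 were 2-fold higher in the 6 cells (median of 1.502 on the log2 scale), and without the pair the median was -1.13.

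Without the pair, 173 of 3078 genes were 2-fold higher and 576 lower. Slamf7, high in the control members too, had 5, 11, 5, 0, 1 and 8 UMIs in cells 1 to 6 (5.96-fold, 3.73 to 9.34). Txn1, a thioredoxin gene, had 18, 50, 29, 2, 7 and 2 (4.22-fold), most of them in the pair and cell 1. Ldha, the lactate enzyme gene, had 53, 23, 41, 5, 4 and 2 (2.78-fold), 1 of 4 glycolysis genes of 10 that were 2-fold higher. Ly6c2 had 86 of its 89 UMIs in cell 5. Lower genes included Jun, at 0 UMIs in all 6 cells against 249.6 CPM, and S100a6, at 7 UMIs in cell 4 and 0 in the others (ratio 0.0964). Of 10 immediate early genes 7 were 2-fold lower (median -1.24). Against the deep knockout B cells the median was -0.53, Jun, Junb and Klf6 were still 2-fold lower, and Dusp1 and Fos stood at -0.040 and 1.01 on the log2 scale.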

How the data were processed

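The deposited expression matrices give, for each barcode, UMI counts by gene. Per the file headers the authors used Cell Ranger 6.0.0. The genome was GRCm38, also called mm10, according to the submitters' processing notes. The deposited contig tables hold read counts and UMI counts with V, J and constant calls. Contigs were joined to cells by barcode within a genotype. Counts were summed per class and divided by UMIs outside immunoglobulin genes. Ratios carry exact conditional binomial intervals, and a count of 0 was set to 3. Genes needed 50 UMIs over both classes, and 2-fold was called without a test, since cells of 1 library are not replicates. Shares of cells with a UMI were also computed after thinning to 1500 UMIs. The members and gene lists were chosen with earlier results of these data known. Named genes were the first 15 higher and lower by the interval bound nearest to 1, leaving out immunoglobulin, T cell receptor, mitochondrial, ribosomal and predicted genes, with list members, markers, constant genes and the commonest V genes. Jun, S100a6, Mef2b and the other genes named for single cells were chosen after their values were seen. Positions of 431 of 435 genes were matched by symbol to RefSeq. V region mismatches to a genome were not run, because no genome was given, and the B cell reference was added after seeing the data. Values of some listed genes are not reported here. The ratio step was tested on simulated data. Python 3.11.15, numpy 2.4.6, scipy 1.17.1, pandas 2.3.3, scanpy 1.11.5 and matplotlib 3.10.9 were used.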

Additional observations from a re-analysis of the deposited data

How the results depend on the processing

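The counts of genes called in the control members, 563 higher and 805 lower, were 267 and 1804 with CPM over all UMIs, 1146 and 2174 with genes of at least 10 UMIs, 218 and 183 with at least 200, and 233 and 325 at 4-fold. Against control B cells of 7000 or more UMIs, an alternative chosen after seeing the data, 442 were higher and 282 lower. With CPM over all UMIs the list medians were 0.77 for plasma cell regulators, 0.47 for amino acid supply, -1.20 for homing and -1.745 for interferon genes. With at least 10 UMIs the medians were 1.99 for cell cycle, -1.99 for cytokine and -1.73 for interferon genes, and with at least 200 the cytokine median was -4.98 and the interferon median 0.89. Against knockout B cells the cytokine median was -2.29, the interferon median -1.16 and Cd9 -0.48. Against the deep control B cells the medians were -0.86 for B cell transcription factors and -1.28 for glycolysis, with Tpi1 at -1.18 and Btg2 at 1.29. Without barcodes holding T, NK or macrophage markers, also chosen after seeing the data, the cell cycle median was -1.01 and the interferon median -1.13. The knockout counts of 210 and 502 were 54 and 97 against knockout B cells of 7000 or more UMIs, 1743 and 888 with at least 10 UMIs, and 173 and 576 without the clone pair. Thinning to 1500 UMIs left 2 knockout members, and the median immunoglobulin share over control cells was 42.3%. Except where fewer genes, cells or UMIs entered by construction, the cause was not tested. Of 3166 values of 277 named genes under the alternatives, 3037 kept their side of 2-fold, 72 fell within it and 54 passed it. Another 3 changed direction with a value past 2-fold. Changes of direction within 2-fold were counted among the 3037. Sec62, for example, stood at 0.75 in the main setting and at -0.04 with CPM over all UMIs. Taking all control members of 5 or more Jchain UMIs and leaving out doublets kept the same cells, so agreement under these alternatives was fixed in advance. The named gene values of both alternatives are nevertheless counted among the 3037. Members were deeper than B cells, so a gene at 0 in B cells may lie under their floor. No paired analysis was possible because each genotype has 1 library and no test was made. Mismatches to a genome and their alternatives were not run.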
